A study of Mus musculus with 2 samples.

Results

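The Krüppel-like factors (KLFs) are transcription factors that share a block of C2H2 zinc fingers at the C-terminal end, through which they bind GC-rich and CACCC-type sequences. Their N-terminal regions differ and decide which partner is recruited. Klf2, Klf4, Klf5, Klf6 and Klf7 are mainly grouped as activators, Klf3 and Klf12 as repressors that bind the co-repressor CtBP, and Klf9, Klf10 and Klf13 as factors that bind the co-repressor Sin3. In lymphocytes KLF factors are known for holding cells in a resting state and for setting the genes of recirculation, and in the gut epithelium Klf4 and Klf5 mark differentiated and dividing cells respectively.

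The 10 listed KLF genes were looked for among array features that carried a single gene symbol in the platform annotation. For 9 of them 1 feature each was found, out of 28281 named genes and 61344 features, and Klf9 was not analysed here. The RNA came from cells labelled ILCreg, a regulatory innate lymphoid cell, sorted from the small intestine. The donor mice were C57BL/6 animals of 8 weeks with the IL-10-GFP knockin allele, which puts green fluorescent protein at the gene of interleukin 10 and which both samples carry. The labels put the purity of the sort at over 95% and describe TRIZOL extraction, DNase, Pico whole-transcript amplification and biotin labelling. There were 2 arrays of this 1 group, named replicate 1 and replicate 2, and the labels do not say whether they stem from separate mice, so their spread could be a technical one. No other population was analysed here, and with 1 group no difference between groups could be tested and no p-value is given.

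Each value is a signal taken as log2 from its range, since the log base is not stated, and is given for replicate 1 and then replicate 2, followed by the mean ± SD (n = 2). A gene was called above the threshold when its signal exceeded, on both arrays, the 95th percentile of 1678 chemosensory receptor genes (olfactory, vomeronasal and taste), which was 6.74 on replicate 1 and 6.19 on replicate 2. A gene below it could not be told from signal read in such genes, which is not evidence that it is absent. The threshold was lower on replicate 2, so a gene with near equal signals could pass on that array only. Probes differ in how well they bind, so a signal is set against the threshold and against the same gene on the other array, and not against the signal of another gene. In bulk RNA, fewer cells of a type and less RNA per cell cannot be told apart.

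Promoter sequences are shown for Klf6, an activator that passed the threshold and differed little between the arrays, for the member that differed most between the arrays, Klf4, and for Klf2, an activator that did not pass the threshold. Each is the 250 bases before the annotated start of the gene, from RefSeq on GRCm38.p6, read 5′ to 3′ on the strand of the gene, with capitals marking every match on either strand to one of 8 motifs. These were the GC box GGGCGG, the KLF motif CCACACCC, the cyclic AMP response element TGACGTCA and its core TGACG, the CCAAT box, the TATA box TATAAA, the FOXO motif GTAAACA and the CArG box.
Klf6 promoter, chr13:5861239-5861488, plus strand: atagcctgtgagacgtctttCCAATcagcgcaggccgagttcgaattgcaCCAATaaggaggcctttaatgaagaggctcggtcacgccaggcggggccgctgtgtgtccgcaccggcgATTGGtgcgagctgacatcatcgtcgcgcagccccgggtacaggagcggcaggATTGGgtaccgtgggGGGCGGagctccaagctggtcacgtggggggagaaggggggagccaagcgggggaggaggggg
Klf4 promoter, chr4:55532476-55532725, minus strand: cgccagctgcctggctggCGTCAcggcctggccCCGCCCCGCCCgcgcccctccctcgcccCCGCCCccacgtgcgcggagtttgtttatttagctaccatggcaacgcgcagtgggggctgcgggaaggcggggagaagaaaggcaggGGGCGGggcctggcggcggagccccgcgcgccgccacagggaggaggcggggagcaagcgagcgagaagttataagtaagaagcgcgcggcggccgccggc
Klf2 promoter, chr8:72318812-72319061, plus strand: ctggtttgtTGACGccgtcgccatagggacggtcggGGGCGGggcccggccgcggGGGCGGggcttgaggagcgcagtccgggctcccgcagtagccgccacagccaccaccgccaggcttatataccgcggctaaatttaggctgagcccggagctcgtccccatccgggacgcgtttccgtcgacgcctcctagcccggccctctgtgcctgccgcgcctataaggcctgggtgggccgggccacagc
TGACG lies within TGACGTCA, so each match to the longer sequence would also count for the shorter. The Klf6 window held 4 matches to CCAAT, the box bound by the factor NF-Y, and 1 to GGGCGG, the box bound by SP and KLF factors. The Klf4 window held 4 matches to GGGCGG and 1 to TGACG. The Klf2 window held 2 matches to GGGCGG and 1 to TGACG. The windows of Klf2, below the threshold, and of Klf4, above it, held the same kinds of match. That of Klf12, also below the threshold, held no GGGCGG and 1 match each to CCACACCC, TGACG and TATAAA. Whether these matches bear on the signals was not tested.

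Windows were held by the table for 8 of the 10 members, all but Klf5 and Klf10. GGGCGG was present in 6 of these 8 windows, against 32.7% of 32851 windows of the same length, and TGACG in 5 of 8, against 17.8%. The 32851 windows were taken whatever the type of gene. CCAAT was present in 3 of 8, against 33.8%. The TATA box matched 1 window, that of Klf12, against 12.4% of all windows. The FOXO motif matched 1, that of Klf9, against 3.17%, and the KLF motif 1, that of Klf12, against 3.2%. The full cyclic AMP response element and the CArG box, the site of serum response factor, matched none of the 8, against 1.55% and 1.47%. The median GC content was 68% in the member windows and 52.4% in all windows, and its part in the motif counts was not tested. These matches describe the letters of the windows and were not measured as binding.

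Of the 9 measured members, 7 lay above the threshold on both arrays (77.8%). Over all named genes 31.7% did, and over 16404 protein-coding genes outside the reference 38.9% did. Of the reference genes themselves 2.44% did. The members were listed with earlier results of these data known, so their share was also set beside that of the whole family: of all 16 KLF genes measured, 7 passed (43.8%), close to the protein-coding share. The 7 that passed were Klf3, Klf4, Klf5, Klf6, Klf7, Klf10 and Klf13, and neither Klf2 nor Klf12 passed on either array.

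**Figure D1:**
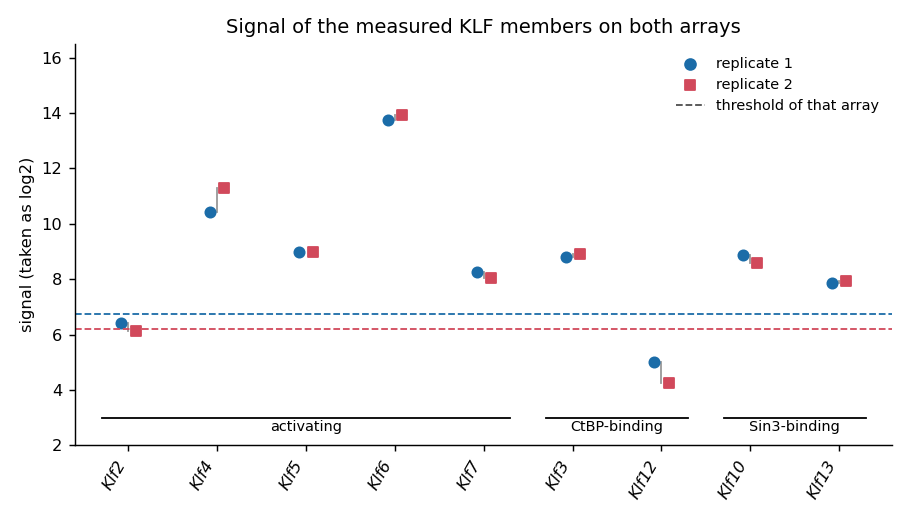
Signal (y axis, taken as log2) of each measured KLF member (x axis, grouped by the partner its N-terminal region is known for) on replicate 1 (circles) and replicate 2 (squares); dashed lines are the thresholds, 6.74 and 6.19. Klf2 and Klf12 sit below the line of each array and the other 7 members above it.

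Of the 5 activating members 4 passed, all but Klf2. Klf6, a widely expressed factor that responds early to injury and growth signals (feature TC1300000028.mm.1), had signals of 13.76 and 13.92, a mean of 13.84 ± 0.11. Both values lay at least 7.02 above the threshold of their array and at least 5.94 below the highest value on it, so the feature was not at the ceiling of the scale. Klf4 (feature TC0400002694.mm.1), which promotes differentiation of goblet cells and of monocytes, had signals of 10.44 and 11.29, a mean of 10.86 ± 0.60. It was higher on replicate 2, and was 3.69 and 5.10 above the thresholds.

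Klf5 (feature TC1400001157.mm.1), a factor of dividing cells of the intestinal crypt, had signals of 8.99 and 8.98, a mean of 8.98 ± 0.01. The arrays hardly differed for it, and it cleared the thresholds by 2.25 and 2.79. Klf7 (feature TC0100002461.mm.1), known from neurons and blood progenitors, had signals of 8.27 and 8.03, a mean of 8.15 ± 0.18, and lay 1.53 and 1.84 above the thresholds.

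Klf2 (feature TC0800000823.mm.1) was the one activating member below the threshold. It keeps lymphocytes quiescent and drives genes of their exit into blood, and is also a factor of the endothelium. Its signals were 6.40 and 6.12, a mean of 6.26 ± 0.20, which were 0.34 and 0.07 below the thresholds. The gap on replicate 2 was smaller than the SD of Klf2 itself, so the call of Klf2 is a near one. With the 90th percentile of the reference as threshold, Klf2 passed on both arrays, by 0.23 or more.

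The CtBP-binding members were split. Klf3 (feature TC0500000599.mm.1), a repressor with roles in B cell and fat cell development, had signals of 8.81 and 8.92, a mean of 8.87 ± 0.08, and cleared the thresholds by 2.06 and 2.73. Klf12 (feature TC1400002608.mm.1), first described as a repressor of the gene of the factor AP-2 alpha, had signals of 4.99 and 4.25, a mean of 4.62 ± 0.52. It was below the thresholds by 1.75 and 1.94, well outside its spread between the arrays. The median of the reference genes was 4.47.

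Both measured Sin3-binding members passed. Klf10 (feature TC1500001410.mm.1), an early gene of transforming growth factor beta (TGF-beta) signalling with a role in regulatory T cells, had signals of 8.86 and 8.59, a mean of 8.73 ± 0.19, which lay 2.12 and 2.40 above the thresholds. Klf13 (feature TC0700003406.mm.1), which activates the chemokine gene Ccl5 in late activated T cells, had signals of 7.84 and 7.94, a mean of 7.89 ± 0.07. It exceeded the thresholds by 1.10 and 1.75, and with the 99th percentile of the reference it fell short by 0.06 on replicate 1.

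The other KLF genes and the SP genes, the nearest relatives of the KLF family, were mostly below the threshold. Of 7 further KLF genes, 0 passed on both arrays and 1, Klf11, passed on replicate 2. Klf11, like Klf10 an early gene of TGF-beta signalling, had signals of 6.66 and 6.57, 0.09 below and 0.38 above the thresholds. Its signals were close, and the split call came from the lower threshold of replicate 2. Klf15, a factor of amino acid and glucocorticoid metabolism, had signals of 6.08 and 6.19 and missed the threshold of replicate 2 by 0.002. Klf1, the factor of red blood cell precursors, stood at 4.17 ± 0.07, and Klf8, Klf14, Klf16 and Klf17 had means between 3.59 and 5.18.

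Of 8 measured SP genes, 3 passed (37.5%), near the 38.9% of protein-coding genes, and Sp2 was not analysed here. Sp3, a widely expressed GC box factor, had signals of 9.37 and 9.41, a mean of 9.39 ± 0.03. Sp1, the founding member, had signals of 7.79 and 8.28, a mean of 8.03 ± 0.35. Sp4 had signals of 7.29 and 7.17, a mean of 7.23 ± 0.09. Sp1 and Sp3 are known from most tissues. The other 5, Sp5 to Sp9, had means between 3.31 and 5.67, all below the threshold on both arrays. At the 99th percentile of the reference, 1 of the 15 measured KLF and SP genes of this list passed in place of 3.

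**Figure D2:**
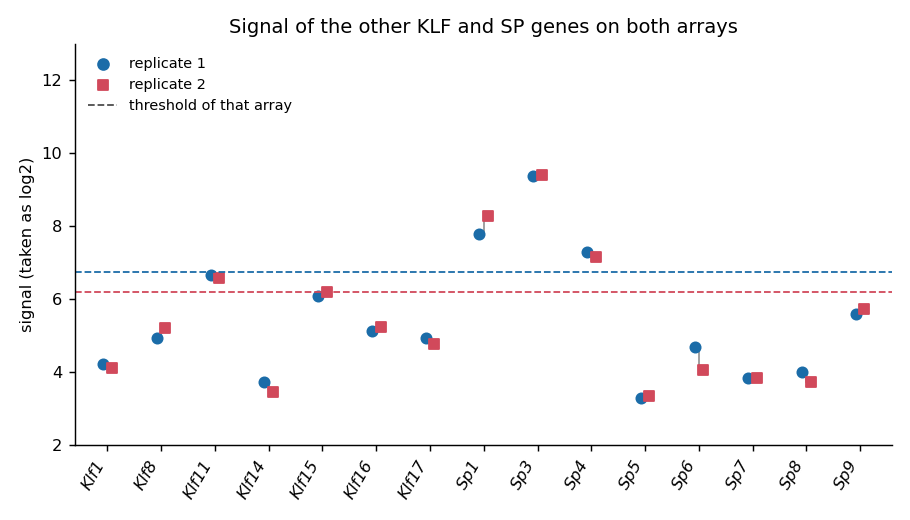
Signal (y axis, taken as log2) of the other measured KLF and SP genes (x axis) on replicate 1 (circles) and replicate 2 (squares), with the threshold of each array dashed. Sp1, Sp3 and Sp4 lie above the threshold on both arrays, Klf11 on replicate 2 only.

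Genes of the partners that KLF factors recruit were above the threshold in 9 of 10 measured cases (90%). The protein-coding share above the threshold, 38.9%, is the background for this list and each list that follows. Crebbp, the acetyltransferase CBP, stood at 11.12 ± 0.13 and the deacetylase gene Hdac1 at 9.79 ± 0.33. Ctbp1, encoding the co-repressor bound by Klf3 and Klf12, was at 8.36 ± 0.03, whereas its paralog Ctbp2 (6.70 ± 0.09) passed on replicate 2 only. Sin3a, the partner of the Sin3-binding members, was at 8.06 ± 0.04 and Sin3b at 6.98 ± 0.02. Relative to the median gene 10 of 10 were higher on replicate 2, 8 of 10 without that centring and 7 of 10 after quantile normalization. The background for the centred count is 63.7%, the share of coding genes clearing both thresholds whose centred difference was over 0. No such share was computed for the counts of 8 and 7, so they cannot be set against it. Whether this list in particular shifted was not tested.

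Of 15 measured genes that act before KLF factors, 12 passed on both arrays (80%, against 38.9% of protein-coding genes) and 3 on one. Foxo1, a driver of Klf2 in lymphocytes, had signals of 9.15 and 9.05, a mean of 9.10 ± 0.07, 2.40 and 2.86 above the thresholds. Its part in the signal of Klf2 was not tested. Mapk7, which encodes the kinase ERK5 that raises Klf2 in endothelium, had signals of 6.73 and 6.72 and missed the threshold of replicate 1 by 0.01. Mef2a, a target of that kinase, was at 10.86 ± 0.39. Tgfbr2, a receptor chain for the signal that induces Klf10, stood at 11.83 ± 0.36. Wwp1, a ubiquitin ligase for Klf2 and Klf5, was at 9.55 ± 0.30, and Fbxw7, a subunit of a ligase that also acts on Klf5, at 6.46 ± 0.16 passed on replicate 2 only.

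Of 6 measured trafficking genes tied to Klf2, 3 were above the threshold (50%), against 38.9% of protein-coding genes. S1pr1, the receptor for lymphocyte exit that Klf2 activates, had signals of 6.50 and 6.66, 0.24 below and 0.47 above the thresholds. Cd69, which removes that receptor from the cell surface, had signals of 10.80 and 10.78, a mean of 10.79 ± 0.02. Ccr7, a receptor for homing to lymph nodes, was at 9.12 ± 0.31 and Itgb7, an integrin chain for homing to the gut, at 7.68 ± 0.29. S1pr4 (5.25 ± 0.24) and Cxcr3 (5.69 ± 0.30) were below the threshold on both arrays. Of 6 vascular genes tied to Klf2 and Klf4, 3 passed (50%), against the same 38.9%. Vcam1, an adhesion molecule lowered by Klf2 in endothelium, was at 10.83 ± 0.52 and Thbd, encoding thrombomodulin, at 8.84 ± 0.28, while Nos3, the endothelial nitric oxide synthase gene, was below the threshold at 4.84 ± 0.10.

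Epithelial genes tied to Klf4 and Klf5 passed in 5 of 8 measured cases (62.5%), against 38.9% of protein-coding genes. Cdkn1a, a cell cycle inhibitor activated by Klf4, was at 14.28 ± 0.22 and Tff3, a trefoil peptide gene of goblet cells, at 13.77 ± 0.04. Atoh1, a factor of early secretory cells, and Lgr5, a stem cell marker, were below the threshold at 5.19 ± 0.20 and 5.07 ± 0.37. All 5 measured genes of TGF-beta signalling listed beside Klf10 passed, with Tgfbi at 12.05 ± 0.04, Skil, encoding the inhibitor SnoN, at 11.58 ± 0.10 and Id1 at 7.75 ± 0.22. They include the ligand gene Tgfb1, so the count does not measure a response to TGF-beta. Both genes tied to Klf13 passed, Ccl5 at 7.22 ± 0.38 and the survival gene Bcl2l1 at 7.77 ± 0.01, and neither did at the 99th percentile.

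Of 14 clock and glucocorticoid genes, listed because KLF9 takes part in both systems, 9 passed (64.3%), and 5 did at the 99th percentile. Of protein-coding genes 38.9% passed. Arntl, encoding the clock activator BMAL1, was at 9.95 ± 0.14 and Clock at 9.81 ± 0.80, while Per3 (4.66 ± 0.03) and Dbp (4.75 ± 0.18) were below the threshold. Several KLF genes, Klf4 and Klf6 among them, are known as immediate early genes, which rise within minutes of cell stimulation or tissue dissociation. Of 21 measured immediate early genes 18 passed on both arrays, a share of 85.7%, with a median of 10.59. Fosb stood at 17.36 ± 0.22 and Dusp1 at 15.52 ± 0.51, and Ier3 (4.61 ± 0.22) and Socs3 (4.23 ± 0.06) were below the threshold. Whether handling of the cells bears on the signal of Klf4 or Klf6 was not tested.

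Markers of several cell types were above the threshold on the same arrays as the KLF genes. All 11 epithelial markers, all 8 measured stromal and all 9 measured macrophage markers passed, with medians of 11.97, 13.23 and 9.86. Of 15 measured innate lymphoid genes 8 passed, Id2 at 12.08 ± 0.21 and Il10 itself at 10.82 ± 0.32, and Ncr1 (4.67 ± 0.06) and Eomes (5.18 ± 0.51) did not. T cell markers passed in 4 of 7 measured cases, with Cd3e at 9.79 ± 0.16 and Cd3g at 9.11 ± 0.20, while Cd247 (5.13 ± 0.27) did not. B and plasma cell markers passed in 5 of 7 (2 of 7 at the 99th percentile). Jchain stood at 17.79 ± 0.45 and Xbp1 at 13.50 ± 0.37, while Pax5 (mean 4.86) and Tnfrsf17 (5.96 ± 0.59) were below the threshold. Endothelial markers passed in 4 of 12 cases (33.3%), near the share of protein-coding genes, and in 1 of 12 at the 99th percentile. Eng, encoding endoglin, was at 8.38 ± 0.48 and Pecam1, encoding the adhesion molecule CD31, at 7.99 ± 0.14, while Plvap (4.49 ± 0.24) and Vwf (5.28 ± 0.13) were below the threshold. Klf4 and Klf5, known from gut epithelium, lay above the threshold on arrays where each measured marker of epithelium, stroma and macrophages did so too. The part of these cells in the KLF signals was not tested.

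**Figure D3:**
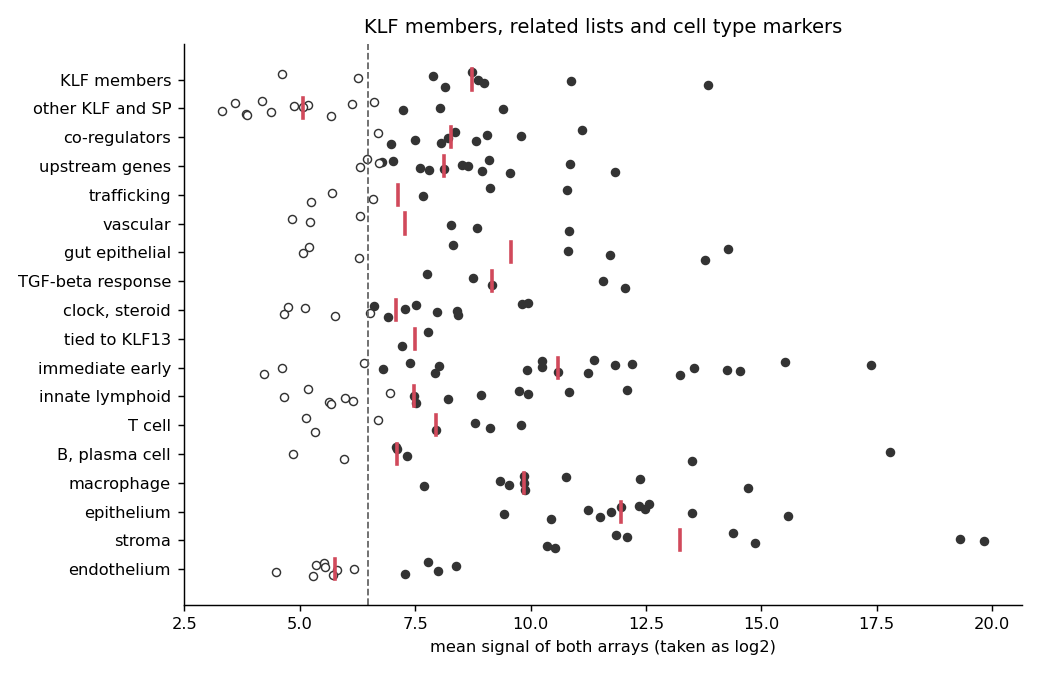
Mean signal of both arrays (x axis, taken as log2) for each measured gene of each list (rows); filled points passed the threshold on both arrays, open points did not, red bars are list medians, the dashed line is the mean of both thresholds, 6.47, and the height within a row only separates points. The KLF members, with a median of 8.73, have 7 filled and 2 open points, and the other KLF and SP genes 3 filled and 12 open ones.

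The members differed little between the arrays, apart from Klf4 and Klf12. From the signal on replicate 2 that on replicate 1 was subtracted, and the median over all named genes, -0.05, was taken off. No member reached a centred difference of 1 in either direction, a size that 4.16% of the 8971 genes above the threshold exceeded. Klf4 had a centred difference of 0.90, and 520 of those genes (5.80%) differed by at least as much. Klf12, below the threshold on both arrays, had a difference of -0.69, and 1056 of the 17180 genes below it on both arrays (6.15%) differed by at least as much.

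The remaining 7 members had centred differences between -0.23 and 0.21. Klf6 was at 0.21, Klf3 at 0.17, Klf13 at 0.14 and Klf5 at 0.03, and on the other side Klf2 was at -0.23, Klf10 at -0.23 and Klf7 at -0.20. In all, 5 of the 9 were higher on replicate 2, against 50% of all named genes. All 5 were among the 7 members above the threshold, where 55.3% of all genes and 63.7% of protein-coding genes were higher on replicate 2. Klf5 was the one member whose sign turned, to -0.02 without centring and -0.12 after quantile normalization. The root mean square replicate SD was 0.29 over the members, 0.31 over all named genes and 0.34 over genes above the threshold. Each difference sets 1 array against 1 and has no replicate check. The activating, CtBP-binding and Sin3-binding groups each had members on both sides of 0. Whether the members of a group moved together was not tested, and the CtBP-binding and Sin3-binding groups had only 2 measured members each.

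**Figure D4:**
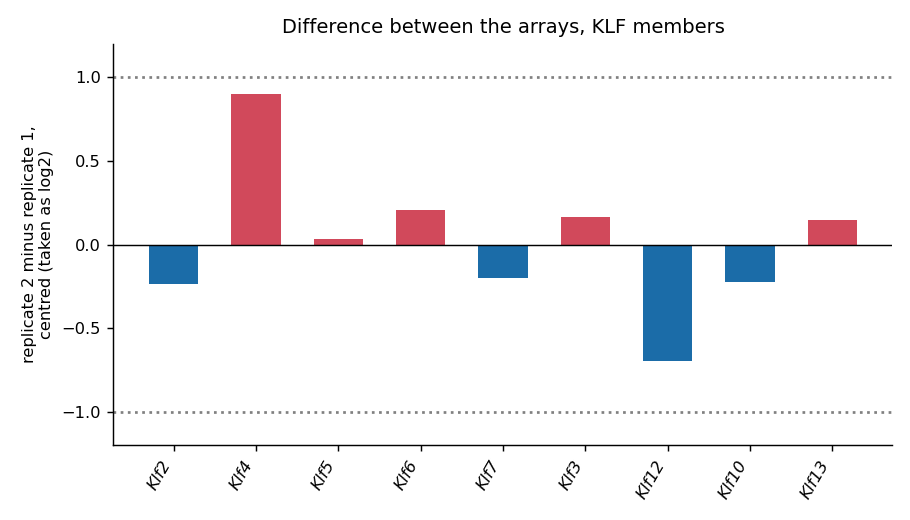
Difference of replicate 2 minus replicate 1 (y axis, taken as log2), less the median difference of all named genes, for each measured KLF member (x axis); dotted lines mark 1 and -1. Klf4 at 0.90 and Klf12 at -0.69 stand apart from the other members, which lie between -0.23 and 0.21.

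Cell type markers also differed between the arrays, in some lists through a few genes. Of the 8 stromal markers 8 were higher on replicate 2 (7 after quantile normalization), against 63.7% of protein-coding genes above the threshold, with a median centred difference of 0.17. Col1a1, Col1a2 and Col3a1, the fibrillar collagen genes, differed by 1.74, 1.89 and 2.08, and the other 5 by 0.05 to 0.18, among them Dpt and Dcn (both 0.11), whose differences equalled that of the highest values of the arrays. Macrophage markers had a median difference of 0.39, with 5 of 9 higher on replicate 2, Adgre1 by 0.86, and Fcgr1 at -0.88. Epithelial markers had a median of 0.13, with 7 of 11 higher relative to the median gene and 6 without centring or after quantile normalization, Krt20 by 0.81, and Fabp1 at -1.09. The immediate early genes had a median of 0.02 and 11 of 21 higher (10 under either of those alternatives). Jun was at 0.91, and Egr2 at -0.57. The part of these genes in the difference of Klf4 was not tested.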

How the data were processed

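Signal was measured on 2 whole-transcript arrays of 1 group. The authors deposited 1 value per feature and array, taken as log2 from its range. MAS5 is named in the submitters' processing notes, without a version. Apart from that name, no label or header used here gives the summarization, scaling or build. Array medians were 5.02 and 4.90, and the number of arrays limits the precision. Of 61344 features, 28573 carried 1 gene symbol and were used, with symbols updated by Entrez identifier to the GRCm38.p6 table; the feature of highest mean stood for a gene. Thresholds, differences and list counts were computed with Python 3.11.15 and pandas 2.3.3 and checked on simulated data. No test was run. The members and lists were chosen with earlier results of these data known. The rule named all members and all other KLF and SP genes, and allowed as examples the 2 highest, the 2 lowest and the 2 most different genes of each list, of which some are given; Ctbp1, Sin3a, Foxo1, Mapk7, Wwp1, S1pr1, Egr2 and Col1a1 were added after their values were seen. Alternatives were the 90th and 99th percentile, a Krtap and Rhox reference, the median over features, quantile normalization, no centring and each replicate left out.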

Additional observations from a re-analysis of the deposited data

How the results depend on the processing

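The count of members above the threshold, 7 of 9, was 8 at the 90th percentile, with Klf2 added, and 6 at the 99th, without Klf13. It was 7 with the Krtap and Rhox reference, the median over features and quantile normalization, and 7 to 7 when either replicate was left out. The median member signal of 8.73 was 8.59 to 8.81 when either replicate was left out. Of the 171 genes in the other lists 118 passed, 91 at the 99th percentile and 129 at the 90th, and 118 to 131 with 1 replicate left out. The count of members higher on replicate 2 fell from 5 to 4 with quantile normalization and with no centring, since the small difference of Klf5 changed sign, to -0.12 and -0.017. With quantile normalization Klf3 moved to 0.01 and Klf13 to 0.05. Each member has 1 feature, so the median over features leaves its signal as it is. No paired analysis was possible because there is 1 group.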
